A study of Mus musculus with 7 samples.

Results

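The regions described here are the 158 peaks of open chromatin, of 98723 in the series, whose midpoints lie in 6 mm9 windows around the genes Gata2, Tal1, Lyl1, Lmo2, Fli1 and Erg. The windows were set from gene positions, not from measured values. They hold 23 peaks at Gata2, 15 at Tal1, 13 at Lyl1, 22 at Lmo2, 39 at Fli1 and 46 in a longer window. That window was defined for Erg with its neighbour Ets2 and is called Erg–Ets2 here. The mm9 position of Ets2 was not checked, so no peak is known to lie at Ets2. Open DNA was read out with Omni-ATAC-seq, a method whose transposase inserts sequencing adapters where chromatin is accessible. The cells were blood stem cells (LSK Flt3- CD150+ CD48- CD45.2+ hCD2+) sorted from bone marrow 16 weeks after transplantation into lethally irradiated mice. All groups share the same history: the strain is given as C57BL/6, cKit-enriched marrow of mice aged 24 months was infected with lentivirus, and transduced cells of donor origin were sorted. The 4 control libraries, numbered 1, 2, 3 and 4, came from cells with the control virus, and the 3 Runx3 libraries, numbered 1, 3 and 4, from cells with a virus expressing Runx3, so that the comparison is of an added, vector-driven Runx3 in transplanted cells. The promoter of the vector is not given in the sources used here. Nor do the labels tie each library to an animal, so p-values reflect only how far these samples spread, some of which may be technical.

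These genes encode most of a group of transcriptional regulators known as the haematopoietic heptad, whose remaining member is Runx1. Gata2 is a zinc finger factor needed for blood stem cells, Tal1 and Lyl1 are related basic helix-loop-helix factors, Lmo2 is a bridging protein that joins DNA-bound factors without binding DNA itself, and Fli1 and Erg are ETS factors. In blood progenitors they bind together at many enhancers, including enhancers of their own genes, where GATA, E-box, ETS and RUNX motifs often lie close to each other. Runx3 belongs to the same family as Runx1 and, with the partner protein Cbfb, recognises the same kind of motif. The comparison asked whether open chromatin at the heptad genes differs in stem cells that carry the Runx3 vector.

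The reference sequences just upstream of these genes are shown because they are the letters on which such factors could act. RefSeq promoters of build GRCm38.p6 matched 4 of the 6 genes (Gata2, Tal1, Lyl1 and Erg) and Ets2. For each of the 4, the 250 bases before the outermost annotated start are given, 5′ to 3′ on the gene's strand. Capitals mark GATAA, GGAA and CANNTG on either strand. Neighbouring or overlapping matches run together.
Gata2, GRCm38.p6 chr6:88193641-88193890, plus strand: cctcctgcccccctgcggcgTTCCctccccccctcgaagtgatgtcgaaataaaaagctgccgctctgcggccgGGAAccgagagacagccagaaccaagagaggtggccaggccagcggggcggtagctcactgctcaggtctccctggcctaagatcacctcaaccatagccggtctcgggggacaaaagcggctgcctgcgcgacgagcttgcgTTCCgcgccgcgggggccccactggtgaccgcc
Tal1, GRCm38.p6 chr4:115056176-115056425, plus strand: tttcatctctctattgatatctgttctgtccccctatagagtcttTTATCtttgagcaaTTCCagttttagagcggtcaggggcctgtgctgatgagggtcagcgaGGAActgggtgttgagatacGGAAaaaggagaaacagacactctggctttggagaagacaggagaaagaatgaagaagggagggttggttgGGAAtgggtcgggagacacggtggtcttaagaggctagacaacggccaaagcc
Lyl1, GRCm38.p6 chr8:84701207-84701456, plus strand: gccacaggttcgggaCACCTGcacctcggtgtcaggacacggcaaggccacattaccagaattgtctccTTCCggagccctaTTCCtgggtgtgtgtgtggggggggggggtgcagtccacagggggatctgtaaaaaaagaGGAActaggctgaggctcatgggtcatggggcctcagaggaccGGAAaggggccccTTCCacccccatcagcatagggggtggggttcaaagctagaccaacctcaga
Erg, GRCm38.p6 chr16:95586594-95586843, minus strand: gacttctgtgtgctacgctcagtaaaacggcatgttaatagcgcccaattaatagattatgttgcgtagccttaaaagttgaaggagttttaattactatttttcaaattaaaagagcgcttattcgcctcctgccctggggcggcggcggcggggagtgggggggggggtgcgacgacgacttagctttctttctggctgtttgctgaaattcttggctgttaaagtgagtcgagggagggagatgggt

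The ETS core GGAA occurred 3 times in the Gata2 stretch, 4 times at Tal1, 5 times at Lyl1, 0 times at Erg and 1 time at Ets2, and 93.4% of the 32851 promoters in the table hold it over the same length. GATAA occurred 1 time, at Tal1 (22.6% of all promoters). The E-box CANNTG occurred 1 time, at Lyl1 (66.2% of all promoters). Neither RUNX word searched, TGTGGT or TGCGGT, lay in any of the 5 stretches, and 18.6% of all promoters hold one or the other. These matches describe letters in 250 bases and nothing more. The peaks are in mm9, a different build, so none of them is placed on these promoters here, and the sequences of the peaks were not analysed here.

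By gene order in the RefSeq table, the protein-coding neighbours are Rpn1 and Dnajb8 for Gata2, Stil and Pdzk1ip1 for Tal1, Trmt1 and Nfix for Lyl1, Caprin1 and 4931422A03Rik for Lmo2, Kcnj1 and Ets1 for Fli1, and Kcnj15 and Ets2 for Erg. The windows can hold elements of these neighbours as well, and no peak was assigned to a gene. For the same reason the stem cell label and the expression of Runx3 were not checked against gene markers.

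Library totals ran from 1738164 to 3758422 reads in peaks, and the 3 Runx3 libraries hold fewer reads than control libraries 2, 3 and 4. Levels are given in CPM, read counts scaled to a common library size with TMM factors, and 3 reads correspond to between 0.798 and 1.73 CPM before that scaling. Divisions of the libraries into 2 parts, with Runx3 4 always in the larger part, were searched for peaks at least 8-fold apart in either direction. The division with the most such peaks was kept. It has 57 of the 98723 peaks in the table and puts control 1, control 2 and Runx3 1 against the other 4 libraries. Control 1, control 2 and Runx3 1 are called set 1 and the others set 2. The sets come from this search, not from the labels, and are a description. They coincide with the library numbers, as set 1 holds numbers 1 and 2 and set 2 numbers 3 and 4. None of the 57 peaks lies in the 6 windows.

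Peaks were more closely spaced in these windows than in their flanks. The 6 windows cover 1130 kb and hold 14.0 peaks per 100 kb, against 7.61 per 100 kb in flanks of the same length on each side. Density was highest at Lyl1 (26.0 per 100 kb, flanks 19.0) and lowest in the Erg–Ets2 window (8.85, flanks 6.06). Closer spacing did not mean taller peaks throughout. The tallest flank peak exceeded the tallest window peak at Lmo2 (51.1 against 33.8 CPM), Fli1 (54.7 against 30.9) and Erg–Ets2 (88.3 against 25.9). It was lower than the tallest window peak at Gata2, Tal1 and Lyl1. The median peak stood at the 62.3rd percentile of accessibility of all peaks in the table, and at the 70.5th percentile per kb of peak width. With the table divided into 5 equal classes of accessibility, 35 of the 158 peaks were in the top class. The loci were built differently: at Tal1 the strongest peak held 32.4% of the summed accessibility and at Lyl1 27.8%, while at Gata2 it held 16.7%, at Lmo2 13.7%, at Fli1 11.5% and in the Erg–Ets2 window 9.48%. Peaks of a locus are numbered here along the chromosome.

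**Figure D1:**
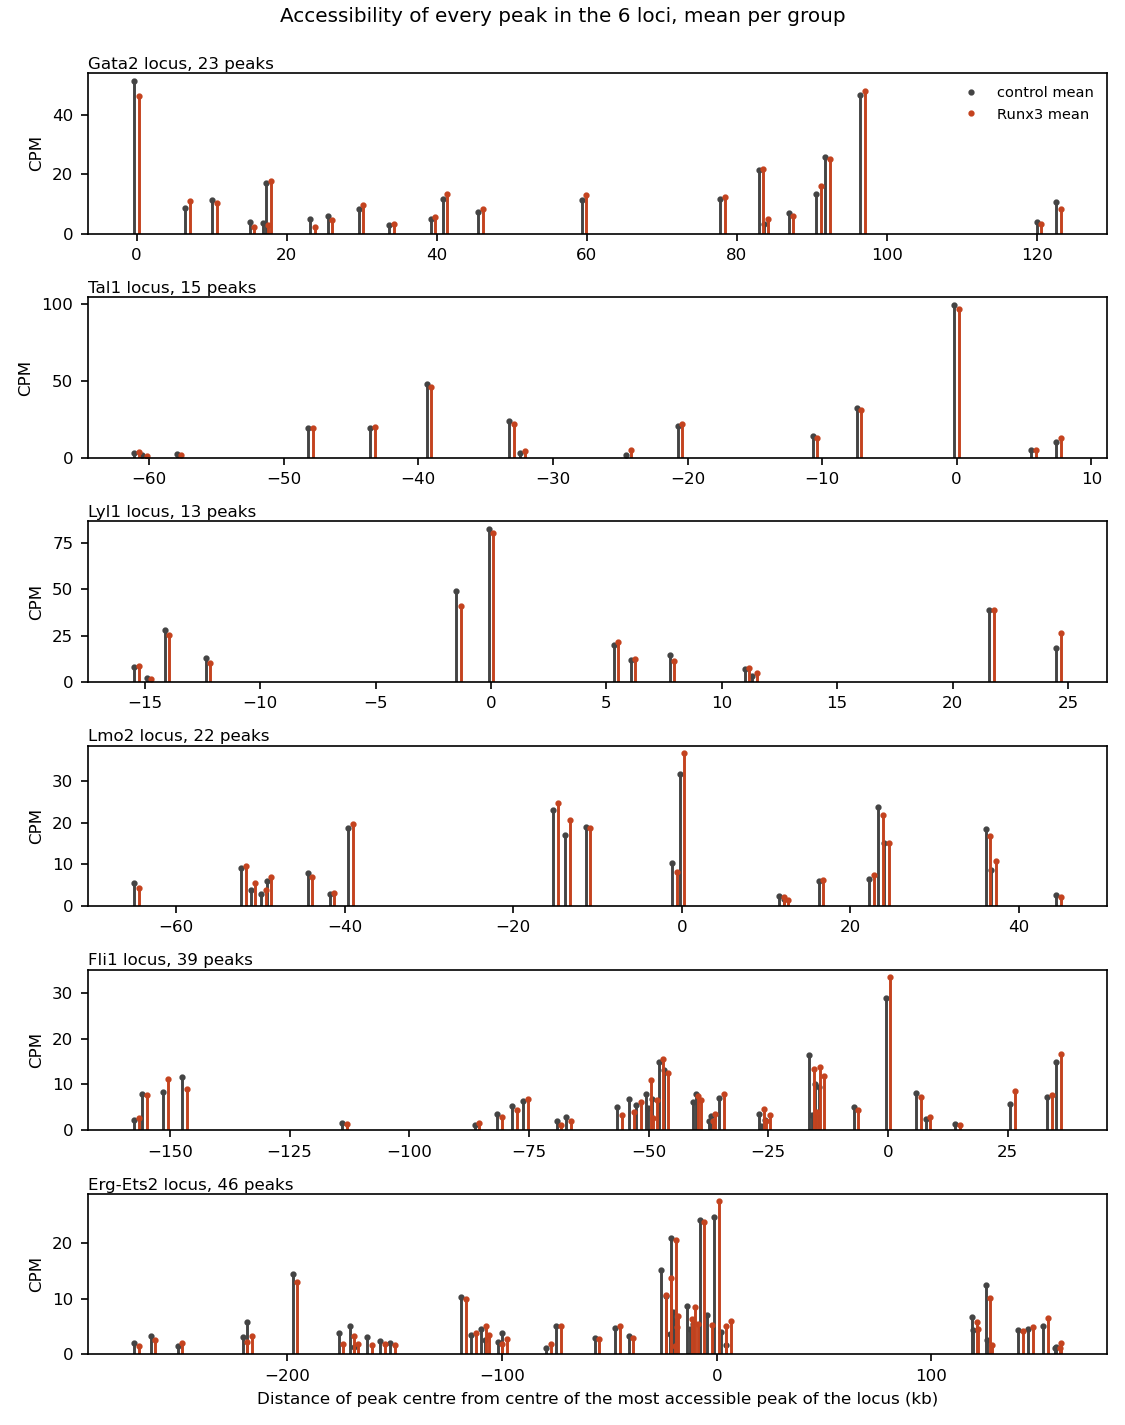
Mean accessibility (CPM, vertical axis) of each of the 158 peaks in the control (grey) and Runx3 (orange) libraries, by distance in kb from the centre of the strongest peak of its locus; the axes differ between panels. Tal1 is led by 1 tall peak and Lyl1 by neighbouring peaks, Fli1 and Erg–Ets2 hold many low peaks, and the paired stems are of similar height.

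No peak of these loci passed the test for a difference between the vectors. Of the 158 peaks, 115 passed the filter on low counts and were tested, and 0 were called in either direction (edgeR quasi-likelihood test, adjusted p under 0.05, smallest adjusted p = 0.144), where 0.073% of all 57504 tested peaks were called, 0.033% higher and 0.04% lower. At an unadjusted p under 0.05, edgeR gave 3 higher and 4 lower, or 6.09% of the 115, against 8.31% of all tested peaks (3.91% higher and 4.39% lower). At the same threshold DESeq2 gave 3 higher and 0 lower, and limma-voom 3 higher and 1 lower. The groups did not overlap in 6 peaks above and 5 below, or 9.57%, against 8.94% of all tested peaks (4.36% above and 4.58% below). These shares lie near those of the whole table. Log2 fold changes of the 115 had a median of 0.06, with 65 above 0 (56.5%) and 50 below, while those of all tested peaks had a median of -0.01, with 48.8% above 0. The filter asked for at least 3 libraries at its minimum, and 3 of the 115 reached it in 1 group alone: Gata2 peak 7 and Fli1 peak 16 in controls and Erg–Ets2 peak 37 in Runx3 libraries. Being tested thus favoured a difference at these 3.

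The summed accessibility of each locus, over all its peaks, overlapped between the groups in all 6 loci. At Gata2 it was 297 ± 26.9 CPM in controls (SD, n = 4) and 295 ± 8.90 CPM with Runx3 (SD, n = 3). At Tal1 it was 304 ± 8.73 and 303 ± 26.3 CPM, and at Lyl1 296 ± 7.70 and 290 ± 15.4 CPM. Lyl1 and Tal1 had the closest controls of the 6 loci, but Tal1 had the widest spread of the 6 with Runx3. At Lmo2 the sum was 243 ± 17.8 CPM in controls and 252 ± 8.66 CPM with Runx3, at Fli1 263 ± 10.6 and 274 ± 17.9 CPM, and in the Erg–Ets2 window 277 ± 19.3 and 268 ± 9.83 CPM. The log2 differences, Runx3 minus control, ran from -0.05 (Erg–Ets2) to 0.06 (Lmo2 and Fli1). Each of the 0.06 values rested on 1 library: the Lmo2 difference was 0.01 without control 1, and the Fli1 difference 0.01 without Runx3 1. Each of the 6 differences was smaller than the pooled SD of its locus (0.06 to 0.10). Computed within set 1, the log2 difference was -0.15 at Tal1, -0.15 in the Erg–Ets2 window and 0.18 at Fli1, where the set has a single Runx3 library, and within set 2 it was 0.07, 0.04 and -0.01. Set values of single peaks given further on are log2 differences with 0.5 CPM added. These sums are a description and were given no test. A drop in the share of cells with an open site and a drop in openness per cell cannot be told apart in such bulk libraries.

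**Figure D2:**
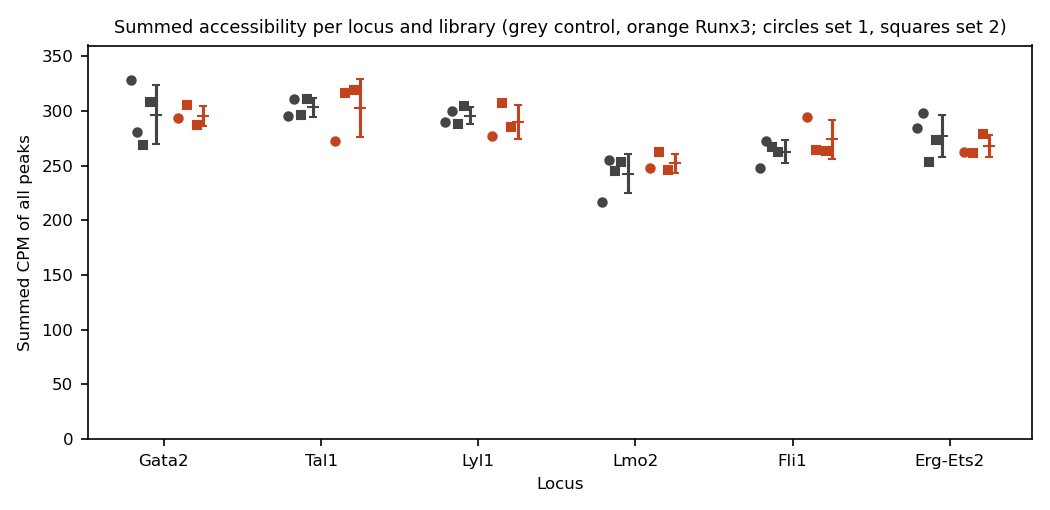
Summed accessibility of all peaks in each locus (CPM, vertical axis starting at 0), 1 point per library, with mean ± SD; grey is control, orange Runx3, circles set 1 and squares set 2. Control and Runx3 points overlap in every locus, and all lie between 217 and 328 CPM.

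Gata2 was led by peaks at opposite ends of its window. Peak 1, chr6:88055898-88057162, had 62.9, 55.3, 38.4 and 49.5 CPM in controls 1 to 4 and 42.9, 49.1 and 47.4 CPM in Runx3 libraries 1, 3 and 4. The Runx3 values fall inside the range of the controls, and edgeR put the log2 difference at -0.12 ± 0.14 (SE), with an adjusted p of 0.893. Peak 21, chr6:88152917-88153660, had 47.3, 41.7, 51.5 and 46.6 CPM in controls and 43.4, 52.1 and 48.2 CPM with Runx3. Here too the groups overlap, with a log2 fold change of 0.04 ± 0.13 and a 95% interval of -0.22 to 0.30. Peak 20, chr6:88148269-88148944, the third in rank, had 25.9 ± 3.28 CPM in controls (SD, n = 4) and 25.2 ± 3.11 CPM with Runx3 (SD, n = 3).

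The lowest fold change of all 115 was at Gata2 peak 7, chr6:88079768-88080152, a weak peak at the 43.8th percentile of accessibility. It had 16, 11, 13 and 16 reads in the controls, or 7.57, 3.92, 3.47 and 4.21 CPM, and 2, 6 and 7 reads with Runx3, or 1.14, 2.32 and 2.91 CPM. Every Runx3 library was below every control. Its log2 fold change was -1.03 ± 0.45 (SE, edgeR unadjusted p = 0.0263, adjusted p = 0.502), so it did not pass. The peak had passed the filter through its controls alone.

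At Tal1, peak 13, chr4:114768043-114769563, was the most accessible of all 158 peaks, at the 99.6th percentile of the table (98.8th per kb). It had 95.6, 104, 99.7 and 98.0 CPM in controls and 80.6, 98.1 and 112 CPM with Runx3. The controls lay close together and the Runx3 libraries fell on either side of them. The log2 fold change was -0.03 ± 0.11 (SE, edgeR adjusted p = 0.978), and its 95% interval, from 0.835-fold to 1.15-fold, is the span of changes these libraries leave possible. Peak 6, chr4:114729048-114730119, had 48.1 ± 4.24 CPM in controls (SD, n = 4) and 45.8 ± 2.60 CPM with Runx3 (SD, n = 3). Peak 12, chr4:114761187-114761904, had 32.1 ± 3.67 and 31.2 ± 4.07 CPM. All 10 tested Tal1 peaks had an interval within 2-fold in either direction, and their log2 fold changes ran from -0.13 to 0.30. The upper end was peak 15, chr4:114776117-114776603, with 9.46 to 11.5 CPM in controls and 12.6, 8.5 and 17.5 CPM in the Runx3 libraries, which overlap the controls.

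At Lyl1 a pair of neighbouring peaks led. Peak 6, chr8:87225040-87225795, had 78.5, 86.3, 78.7 and 86.9 CPM in controls and 72.0, 84.2 and 84.4 CPM with Runx3. Per kb of width it was the most accessible of the 158, at the 99.9th percentile of the table. The groups overlap, and the log2 fold change was -0.04 ± 0.11 (SE, edgeR adjusted p = 0.971). Peak 5, chr8:87223754-87224278, had 41.6, 46.0, 49.6 and 58.2 CPM in controls and 33.7, 44.4 and 44.9 CPM with Runx3. The Runx3 values reach below the controls but overlap them. Its log2 fold change of -0.25 ± 0.14 did not pass (edgeR unadjusted p = 0.0725, adjusted p = 0.652). Peak 12, chr8:87246585-87247599, had 38.9 ± 5.25 CPM in controls (SD, n = 4) and 38.9 ± 6.64 CPM with Runx3 (SD, n = 3).

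Peak 13 of the Lyl1 window, chr8:87249802-87250193, is the last one inside the window. It had 19.9, 20.3, 18.4 and 14.0 CPM in controls and 29.7, 24.3 and 24.5 CPM with Runx3. All 3 Runx3 libraries lay above all 4 controls. edgeR gave a log2 fold change of 0.54 ± 0.18 (SE, edgeR unadjusted p = 0.00398), and it did not pass over all tested peaks (edgeR adjusted p = 0.298). It was 0.55 in set 1 and 0.59 in set 2. With 42 to 69 reads in every library, it was the deepest of the 7 peaks with an unadjusted p under 0.05. The largest fold change at Lyl1 was at the weak peak 11, chr8:87236720-87236949, with 3.05 ± 0.696 CPM in controls (SD, n = 4) and 4.93 ± 0.607 CPM with Runx3 (SD, n = 3), and a log2 95% interval of -0.12 to 1.41.

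Lmo2 held several peaks of middle height. Peak 13, chr2:103785612-103786657, had 24.1, 34.3, 34.9 and 33.2 CPM in controls and 42.3, 37.5 and 30.4 CPM with Runx3. Control 1 is low and Runx3 1 high, and the groups overlap. The log2 fold change was 0.18 ± 0.15 (SE, edgeR adjusted p = 0.817), with 0.55 in set 1, which holds both of these libraries, and -0.01 in set 2. Peak 9, chr2:103770848-103771481, had 13.2 CPM in control 1 and between 20.6 and 28.3 CPM in the other 6 libraries. Peak 18, chr2:103809452-103809896, had 23.7 ± 2.43 CPM in controls (SD, n = 4) and 21.7 ± 0.532 CPM with Runx3 (SD, n = 3). The largest fold change of the locus, 0.58 ± 0.37 on the log2 scale at the weak peak 3, chr2:103735118-103735397, came with 1.6 to 5.0 CPM in controls and 3.43 to 7.34 CPM with Runx3. None of the 18 tested Lmo2 peaks had an unadjusted p under 0.05 in edgeR, and in none did the groups separate, where 8.31% and 8.94% of all tested peaks did.

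**Figure D3:**
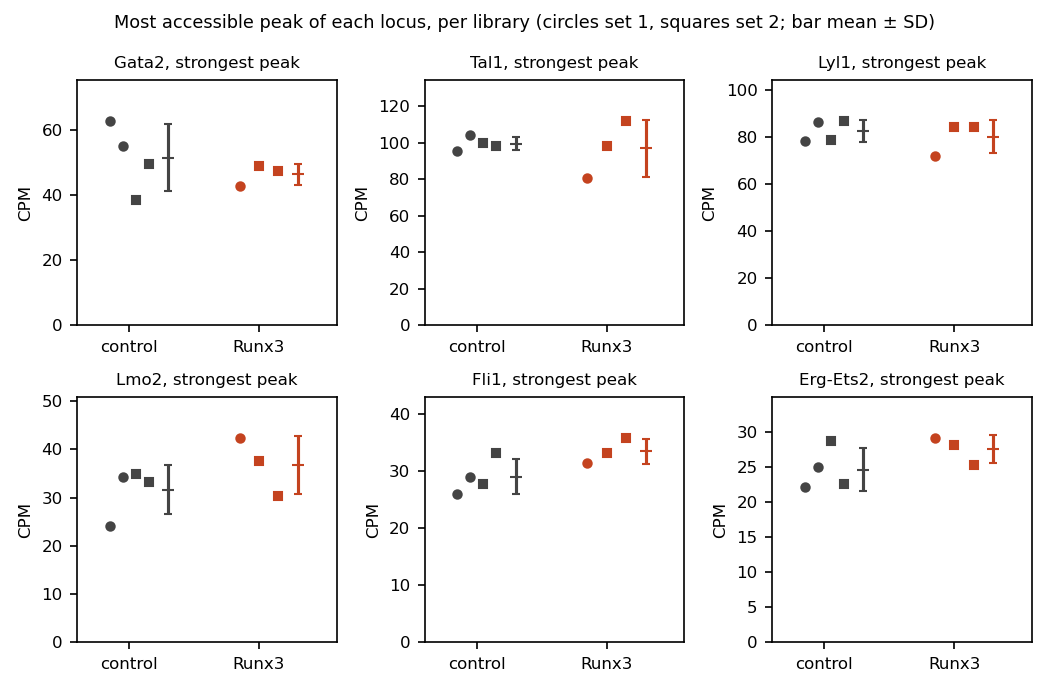
Accessibility (CPM, vertical axes starting at 0) of the strongest peak of each locus in every library, with mean ± SD; circles are set 1 and squares set 2. The control and Runx3 points overlap in all 6 panels, from 25.9 CPM on average in the Erg–Ets2 window to 98.3 CPM at Tal1.

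The ETS factor loci were made of many low peaks. At Fli1, 28 of 39 peaks were tested, and 15 peaks lay in a single 30-kb stretch, chr9:32310107-32338856. The strongest, peak 33, chr9:32363468-32364346, lies outside this stretch and had 26.0, 28.9, 27.7 and 33.2 CPM in controls and 31.4, 33.2 and 35.8 CPM with Runx3. The Runx3 libraries sit at the upper end of the controls and overlap them. The log2 fold change was 0.20 ± 0.15 (SE, edgeR adjusted p = 0.779). Peak 39, chr9:32399300-32399691, had 14.9 ± 2.26 CPM in controls (SD, n = 4) and 16.6 ± 2.03 CPM with Runx3 (SD, n = 3), and peak 28, chr9:32347688-32348214, had 16.4 ± 2.83 and 13.3 ± 1.87 CPM.

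The dense stretch of Fli1 held values in both directions, with a median log2 fold change of 0.09 over its 12 tested peaks, and none passed. Peaks 13 and 16 had lower values with Runx3, and peak 15, between them and named after its values were seen, had a log2 fold change of 0.45 (edgeR unadjusted p = 0.0786). Peak 13, chr9:32310107-32310454, had 3.31, 8.56, 8.53 and 6.59 CPM in controls and 1.71, 4.64 and 5.41 CPM with Runx3. Control 1 lies among the Runx3 values. Its log2 fold change was -0.75 ± 0.35 (SE, edgeR unadjusted p = 0.0384, adjusted p = 0.561). Peak 16, chr9:32314190-32314397, had 4.73 ± 0.852 CPM in controls (SD, n = 4) and 2.73 ± 0.937 CPM with Runx3 (SD, n = 3), a log2 fold change of -0.79 ± 0.41 (edgeR adjusted p = 0.622).

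The Erg–Ets2 window had its strongest peaks in a cluster, shortly followed by a gap of 114 kb without a peak. Between 95656135 and 95684173, a stretch of 28.0 kb holds 13 of the 46 peaks and 51.7% of the summed accessibility, including the 3 strongest. Peak 35, chr16:95680624-95681348, had 22.2, 25, 28.8 and 22.7 CPM in controls and 29.2, 28.2 and 25.4 CPM with Runx3. Peak 33, chr16:95673985-95674470, had 24.3 ± 3.32 CPM in controls (SD, n = 4) and 23.9 ± 2.36 CPM with Runx3 (SD, n = 3), and peak 27, chr16:95660769-95661210, had 20.9 ± 3.61 and 20.6 ± 7.07 CPM. The groups overlap in all 3, and the log2 fold changes were 0.15 ± 0.16, -0.02 ± 0.17 and -0.04 ± 0.19 (SE).

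The Erg–Ets2 window held 4 of the 7 peaks with an unadjusted p under 0.05, among 27 tested, where 8.31% of all tested peaks had one. The smallest p of the 115 was at peak 37, chr16:95686311-95686533, just past the cluster. It had 2, 2, 8 and 10 reads in controls, or 0.946, 0.714, 2.13 and 2.63 CPM, and 13, 11 and 15 reads with Runx3, or 7.43, 4.25 and 6.24 CPM. Every Runx3 library was above every control. Its log2 fold change was 1.72 ± 0.45 (SE, edgeR unadjusted p = 0.000416), or 3.29-fold, with a 95% interval from 1.76-fold to 6.16-fold, and it did not pass over all tested peaks (edgeR adjusted p = 0.144). The peak reached the filter minimum of 3.88 CPM in no control and in all 3 Runx3 libraries, so it was tested only because it was high there. Its log2 difference was 2.58 in set 1, where both controls had 2 reads, and 0.98 in set 2.

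Within the cluster of the Erg–Ets2 window, peak 31, chr16:95669606-95669811, had 3.78, 5.71, 2.67 and 6.06 CPM in controls and 7.43, 8.11 and 9.98 CPM with Runx3. The groups do not overlap. Its log2 fold change was 0.90 ± 0.31 (SE, edgeR unadjusted p = 0.00564, adjusted p = 0.324), and it was 0.62 in set 1 and 1.06 in set 2. At the other end of the cluster, peak 24, chr16:95656135-95656499, had 16.6, 17.8, 16.0 and 10.3 CPM in controls and 10.9, 13.9 and 7.07 CPM with Runx3. Control 4 lies among the Runx3 values, and the log2 fold change was -0.49 ± 0.24 (edgeR unadjusted p = 0.0499, adjusted p = 0.601). Peak 5, chr16:95463205-95463612, far from the cluster, had 2.84 CPM in control 1, 6.13 to 7.64 CPM in the other controls and 2.86 to 3.86 CPM with Runx3, a log2 fold change of -0.81 ± 0.36 (edgeR unadjusted p = 0.0305, adjusted p = 0.526). Control 1 is level with the Runx3 libraries there, and the peak reached the filter minimum in 3 controls and 1 Runx3 library. The window thus held values in both directions, and its median log2 fold change was 0.05.

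**Figure D4:**
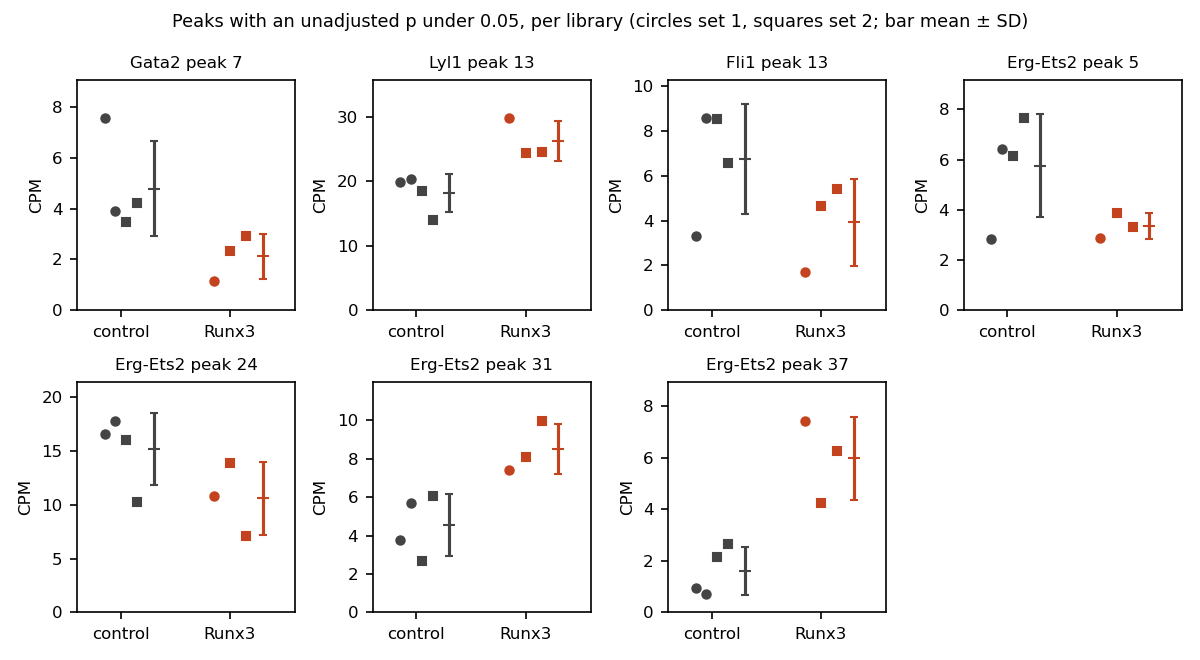
Accessibility (CPM, vertical axes starting at 0) in every library of the 7 peaks with an unadjusted p under 0.05, with mean ± SD; circles are set 1 and squares set 2. The groups separate at Gata2 peak 7, Lyl1 peak 13 and Erg–Ets2 peaks 31 and 37 and overlap in the other 3, and none passed after adjustment.

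How large a change these libraries could have hidden depended on the level of the peak. The 95% interval of the fold change lay within 2-fold in either direction for 93 of the 115 tested peaks, and within 1.5-fold for 37, where 75.7% and 31.7% of all tested peaks had such intervals. Tested peaks were divided into 5 equal classes by mean CPM. Of the 15 peaks of these loci in the top class, 0 had an unadjusted p under 0.05 in edgeR, where 4.99% of all peaks of that class did, so that a count of 0 is near the background. Their median absolute log2 fold change was 0.07, against 0.09 for all peaks of that class. In the lowest class, 19 peaks of these loci had a median absolute log2 fold change of 0.42, against 0.30 for all peaks of the class, and 3 had an unadjusted p under 0.05, where 7.77% of the class did. That class includes Gata2 peak 7 and Erg–Ets2 peak 37, which reached the filter minimum in 1 group alone. The classes between held 26, 22 and 33 peaks of these loci, from low to high, of which 2, 0 and 2 had an unadjusted p under 0.05, against 9.26%, 9.43% and 10.1% of all peaks of those classes. The intervals are approximate, and a p that misses the threshold does not show that the groups are the same.

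**Figure D5:**
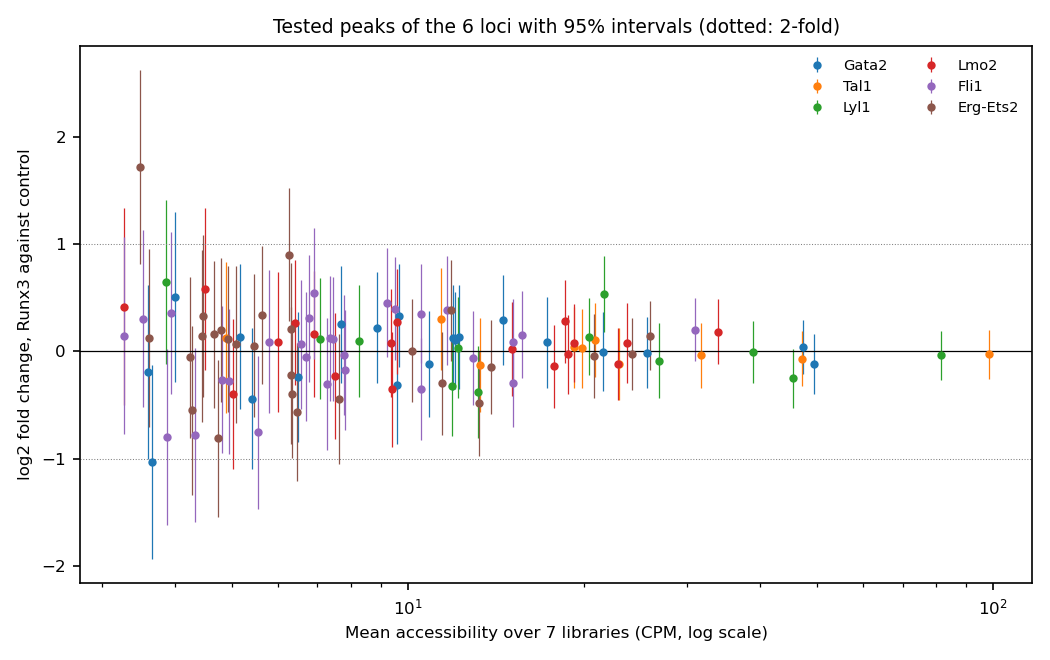
Log2 fold change with its 95% interval (vertical axis) against mean accessibility (CPM, log axis) for the 115 tested peaks, coloured by locus; dotted lines mark 2-fold. The intervals narrow as the level rises, and the value farthest from 0 is Erg–Ets2 peak 37 at 1.72.

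The strongest peaks of the loci varied together across libraries in some pairs and apart in others. Over the 7 libraries, Pearson's r of their log2 CPM was highest between Tal1 and Lyl1 (0.80) and between Lmo2 and Erg–Ets2 (0.79). It was lowest between Gata2 and Erg–Ets2 (-0.79). These 15 coefficients describe 7 shared libraries, with their depths and sets, and carry no test.

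The remaining 43 peaks were too shallow to be tested, with mean levels between 1.08 and 3.64 CPM and at most 18 reads in any library. By locus they number 3 at Gata2, 5 at Tal1, 1 at Lyl1, 4 at Lmo2, 11 at Fli1 and 19 in the Erg–Ets2 window. The Runx3 libraries lay above all controls in 4 of them and below in 1, where 4.55% and 3.57% of all peaks left out by the filter did so. In the fit without the filter, 1 of the 43 was higher (Tal1 peak 9) and 2 were lower (Erg–Ets2 peaks 7 and 26) at an unadjusted edgeR p under 0.05, where 4.1% and 3.06% of all peaks left out were, and none passed after adjustment.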

How the data were processed

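Omni-ATAC-seq was deposited for 7 libraries, 4 control and 3 Runx3, as whole-number read counts per peak, not normalized by the authors. The submitters' processing notes name mm9 and the tools MACS2, Picard, Bowtie2, SAMtools, FastQC and Trim Galore. How the shared peak set was made, tool versions and any shift of reads were not found in the sources used here. Peak positions are those of the deposited table, where it is not stated if the first base is 0 or 1.

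All peaks were fitted together with edgeR 4.0.16 in R 4.3.3. The low-count filter, filterByExpr with 10 as minimum count and 15 as minimum total, kept 57504 peaks and 91.6% of the counts. Libraries were scaled by TMM, and the robust quasi-likelihood test compared the groups without a block, with Benjamini-Hochberg adjustment over all tested peaks and a threshold of 0.05. The SE is the size of the log2 fold change divided by the square root of F, and intervals use it with the fit's degrees of freedom. Both are approximate. CPM cover all peaks. No molecular identifiers are named in the labels. The SE and intervals cover counting error and the spread between libraries as the fit models it. The script was tested on simulated data. Alternatives were other scalings, filters, DESeq2 1.42.0, limma-voom (limma 3.58.1), covariates, the replicate number as a block, and each library left out in turn.

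The loci, the motifs, the library sets and the tests were chosen with earlier results of these data known. Named peaks are, per locus, the 3 with the highest mean CPM, each with an unadjusted p under 0.05, and the one with the largest absolute log2 fold change among tested peaks.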

Additional observations from a re-analysis of the deposited data

Results flagged for a closer look

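Among the 4 controls, 1 library stood apart in 3 of the 35 peak levels and locus sums examined, where about 1 in 20 such groups, or 1.75 here, would do so by chance. Control 1 was lowest at Lmo2 peak 9, chr2:103770848-103771481, with 13.2 CPM against 25.8 CPM in the nearest control, and at Lmo2 peak 13, chr2:103785612-103786657, with 24.1 CPM against 33.2 CPM. Control 3 was lowest at Fli1 peak 16, chr9:32314190-32314397, with 3.47 CPM against 5.0 CPM.

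A signal above the controls also appeared in a peak that the low-count filter had left out. Tal1 peak 9, chr4:114744317-114744526, had 4, 4, 6 and 5 reads in controls 1 to 4 and 13, 9 and 8 reads in Runx3 libraries 1, 3 and 4. Its mean was 1.56 ± 0.251 CPM in controls (SD, n = 4) and 4.74 ± 2.33 CPM with Runx3 (SD, n = 3). Fitted without the filter, its log2 fold change was 1.53 and it did not pass (edgeR unadjusted p = 0.00141, adjusted p = 0.227). In the same fit Erg–Ets2 peak 7, chr16:95505757-95506228, also left out by the filter, had a log2 fold change of -1.10 (edgeR unadjusted p = 0.0181, adjusted p = 0.491), with every Runx3 library below every control, and peak 26, chr16:95660421-95660648, had -1.14 (edgeR unadjusted p = 0.0351, adjusted p = 0.578). These 3 peaks were chosen after their values were seen.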

How the results depend on the processing

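In none of the 17 other fits did a peak of these loci pass an adjusted p of 0.05, nor did one pass 0.10 with the settings of the report, and the smallest adjusted p per fit ran from 0.0757 (without control 1) to 0.99997 (DESeq2). Over the whole table, 42 peaks were called, and 0 (without control 2, without Runx3 1, or with a mean count of 50 or more) to 267 (without control 1) in the other fits. At an unadjusted p under 0.05, against 3 higher and 4 lower, testing only the 27 peaks with a mean count of 50 or more gave 1 and 0, the total count as a covariate gave 7 higher, no low-count filter gave 7 lower, limma-voom 1 lower and DESeq2 0 lower. With the replicate number as a block, 4 were higher and 2 lower, and 101 peaks of the whole table were called at an adjusted p under 0.05. Correlations of same-numbered libraries were 0.12, 0.11 and 0.07, and each Runx3 library correlated best with the control of its number. As 1 of these correlations was under 0.1, the rule used did not count the numbers as pairs. Whether the libraries are paired is thus not settled. Leaving out 1 library gave 3 to 5 higher (5 without Runx3 3) and 1 to 5 lower (1 without control 2 or control 3, 2 without control 4 or Runx3 4). The log2 fold change of Erg–Ets2 peak 37 ran from 1.49 to 2.05, with adjusted p, where given, from 0.0757 to 0.645. DESeq2 gave no adjusted p for this peak, nor for Gata2 peak 7, Lyl1 peak 11, Lmo2 peak 3 and Fli1 peak 16. The smallest DESeq2 value above thus leaves these peaks out. Others moved more, most of all with the total count as a covariate: Lyl1 peak 5 ran from -0.31 to 0.02, Fli1 peak 13 from -1.02 to -0.18 and Erg peak 5 from -0.98 to -0.26. The log2 differences of the locus sums moved by less than the spread between libraries, but that of Lmo2 ran from 0.01 (without control 1) to 0.14 (total count as a covariate) and that of Fli1 from 0.01 (without Runx3 1) to 0.09. The causes of these shifts were not tested.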
